A study of Mus musculus with 30 samples.

Results

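The genes described here are 9 core targets of the transcription factor p53 (encoded by Trp53), namely Mdm2, Cdkn1a, Ccng1, Bax, Perp, Trp53inp1, Phlda3, Sesn2 and Zmat3. They were picked by name from textbook knowledge of the pathway, out of 54134 rows of a gene count table, and all 9 passed the filter on low counts that left 12149 genes for testing. The table holds 30 RNAseq libraries of Bruce4 mouse embryonic stem cells differentiated towards neuromesodermal progenitors (NMPs), bipotent cells of the tailbud that form spinal cord and trunk mesoderm. Wildtype cells and Nr6a1-/- cells, which carry CRISPR deletions in the gene of the orphan nuclear receptor Nr6a1, were each sampled at 5 stages with 3 replicates per group. All cells received FGF2 from the start. At d2 they had received FGF2 alone for 48 h, at d2.5 and d3 the Wnt agonist CHIR99021 (CHIR) had been present for 12 h and 24 h, and d4 cells remained in FGF2 and CHIR for a further 24 h, either without or with the growth factor Gdf11 (d4G). The questions are whether the CHIR step or the knockout line changed the output of p53. No library at d2.5 or d3 was without CHIR, so the effects of CHIR and of time in culture cannot be told apart.

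p53 is held at a low level in unstressed cells by Mdm2, a ubiquitin ligase whose own gene p53 activates, so that the pathway limits itself. When p53 is stabilised by DNA damage or other stress it binds pairs of a 10-base element near its target genes, and the products stop the cell cycle, promote cell death or adjust metabolism. Pluripotent cells carry abundant p53, and several target genes also answer to other regulators. A rise in target RNA therefore does not by itself measure p53 activity.

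The Nr6a1-/- libraries came from 1 clone with different CRISPR deletions in the same internal exon on its alleles, so that genotype and clone cannot be told apart. Reads came from the 3′ end of polyadenylated RNA, and Nr6a1 counts did not check the labels: they did not pass the test between genotypes at d2 or d2.5 and were higher in Nr6a1-/- cells at d3 (log2 fold change 0.70), d4 (1.19) and d4G (0.67). Total counts ran from 1570714 to 3688197 per library, and a count of 0 allows up to 0.813 to 1.91 CPM (counts scaled to a common library total). The study's methods speak of biological replicates without saying whether these were separate cultures, so p-values measure the spread between these libraries, which may be technical. Index sequences in the labels recur between d3 and d4 (2 sequences) and between d4 and d4G (4 sequences), so libraries that share an index cannot have been separated within 1 pool, and stage and pool cannot be told apart. Of the labelled cell type, the summed level of 7 NMP markers was 127 to 150 CPM in wildtype cells at d2 and 956 to 1040 CPM at d3. d4 wildtype replicate 2 stood apart in 1 marker sum, with 7 epiblast markers at 141 CPM against 27.6 CPM in the lowest library of its group. By chi-square per gene it did not, at 2.949 and 3.597 to the other libraries of its group, which differed from each other by 4.276. d4 Nr6a1-/- replicate 1 stood apart by that measure, at 6.438 and 7.675 to the other libraries of its group, which differed from each other by 2.838. Its TMM factor was 0.9086. Because these are bulk libraries, fewer cells of a type and less RNA per cell cannot be told apart.

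The members lie on different chromosomes for the most part. In GENCODE mouse release 21 (GRCm38), Cdkn1a spans chr17:29090976-29100727 on the plus strand, Mdm2 chr10:117688875-117710758 (minus), Ccng1 chr11:40748552-40755311 (minus), Bax chr7:45461697-45466898 (minus) and Perp chr10:18845020-18857073 (plus). Trp53inp1 spans chr4:11156431-11174379 (plus), Sesn2 chr4:132492032-132510501 (minus), Phlda3 chr1:135766119-135769136 (plus) and Zmat3 chr3:32334792-32366014 (minus). Mdm2 and Perp thus share chromosome 10, and Trp53inp1 and Sesn2 share chromosome 4. Sesn2 overlaps Gm12981, which had 49 counts in all against 3808 for Sesn2, and no overlapping gene covers the 3′ end of a member.

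Promoter windows from RefSeq (GRCm38.p6, 250 bases before to 50 after each start site) were given for 6 of the 9 members, all but Trp53inp1, Zmat3 and Perp. They were searched for the p53 decamer, the 10-base element of which a full p53 response element holds a pair. The pattern searched was RRRCWWGYYY, where R is A or G, W is A or T and Y is C or T. It is its own reverse complement, so the search covers both strands. Those 6 genes had 7 windows, 2 of them for Cdkn1a, of which 1 held both of its decamers. The decamer was found in 4 of the 6 genes, at 5 places. Counted by window and not by gene, it was in 8.36% of all 32851 windows. The stretches that hold it are shown because the decamer is the sequence that p53 is known to recognise, each as 30 bases of the strand of the gene with the decamer in capitals.
Cdkn1a, chr17:29090918-29090947 (plus), decamer 51 to 42 bases before the start: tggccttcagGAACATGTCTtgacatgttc
Cdkn1a, chr17:29090896-29090925 (plus), decamer 73 to 64 bases before the start: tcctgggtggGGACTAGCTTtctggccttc
Mdm2, chr10:117710925-117710954 (minus), decamer 186 to 177 bases before the start: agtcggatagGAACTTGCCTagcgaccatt
Ccng1, chr11:40755452-40755481 (minus), decamer 185 to 176 bases before the start: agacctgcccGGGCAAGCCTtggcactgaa
Bax, chr7:45467080-45467109 (minus), decamer 201 to 192 bases before the start: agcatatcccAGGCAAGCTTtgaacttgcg
In the Cdkn1a stretch nearest the start, 9 of the 10 bases that follow the decamer match the pattern searched, position by position. The corresponding number was 3 of 10 in the other Cdkn1a stretch, 5 of 10 in Mdm2 and 4 of 10 in both Ccng1 and Bax. A match is a description of letters and no measure of binding, and the windows of Phlda3 and Sesn2 held no match. Of all windows, 0.359% held 2 or more decamers.

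**Figure D1:**
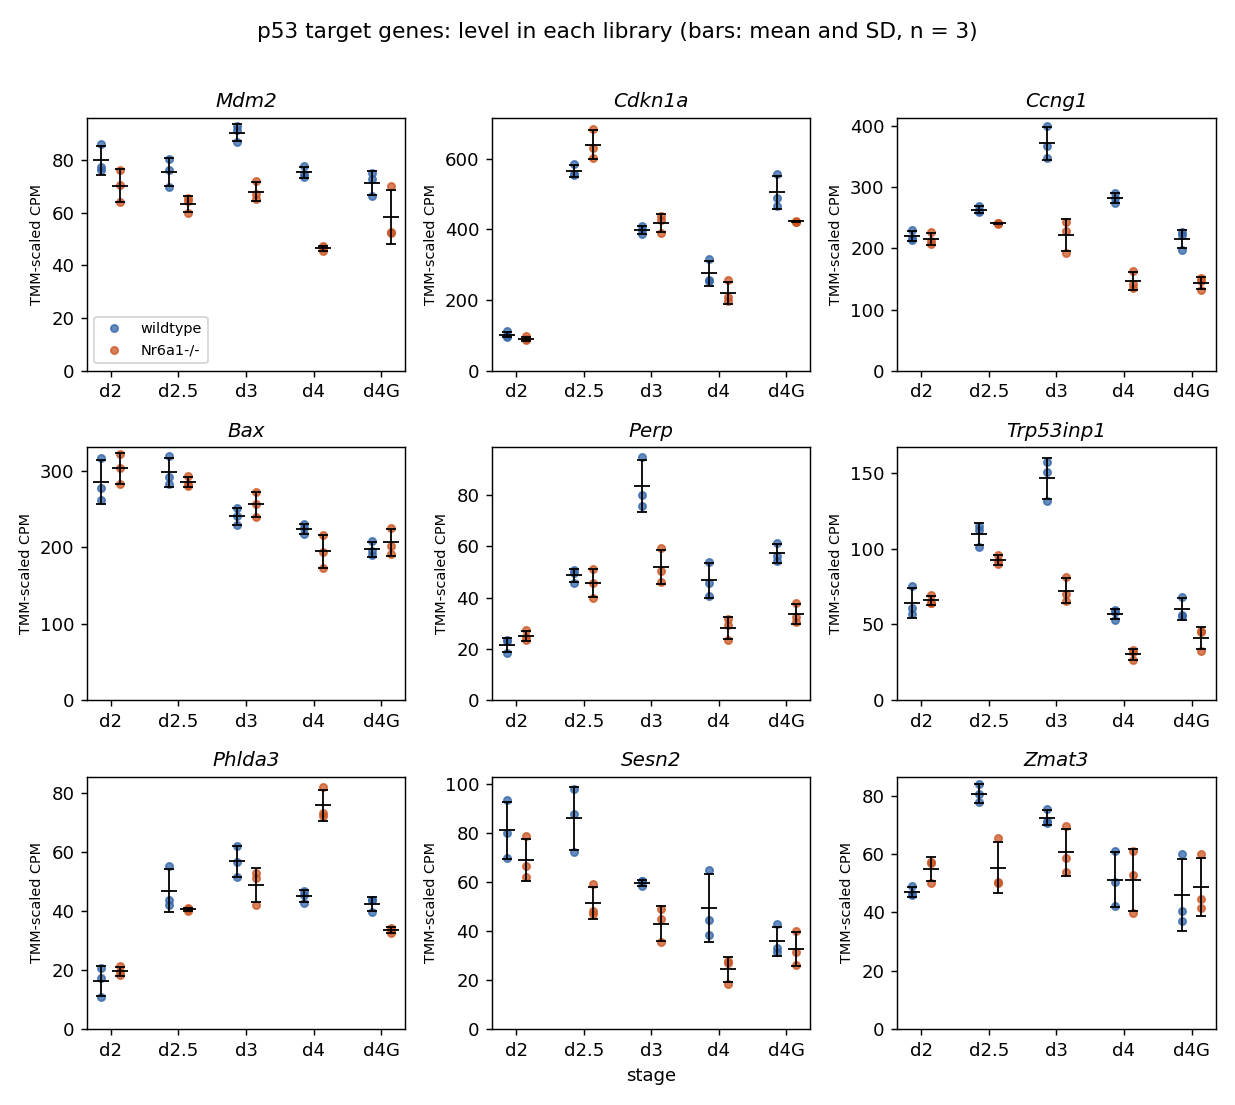
CPM of each of the 9 p53 target genes in every library (points) with the group mean (line), on a linear axis that starts at 0, at the 5 stages in wildtype and Nr6a1-/- cells. Cdkn1a stood between 85.7 and 111 CPM at d2 and between 553 and 685 CPM in all 6 libraries at d2.5, whereas Bax stayed between 173 and 322 CPM throughout.

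In wildtype cells, 6 of the 9 members were higher after 12 h of CHIR than at d2 (Cdkn1a, Phlda3, Perp, Zmat3, Trp53inp1 and Ccng1) and 0 were lower. Of all tested genes, 13.3% rose and 12.1% fell. The call of Ccng1 was lost in 5 of 12 alternatives. The median log2 fold change of the members was 0.76, and that of all tested genes 0.00769. At 24 h, 6 members were higher and 2 lower (Bax and Sesn2) than at d2, where 19.6% of all genes were higher and 17.8% lower. In Nr6a1-/- cells, 4 members rose and 1 fell at 12 h (12.9% and 11.2% of all genes), and 3 rose and 2 fell at 24 h (16.6% and 15.1%). The CHIR step was thus followed by higher RNA of Cdkn1a, Phlda3 and Perp in both lines at both times. Mdm2 did not pass the test in any of these 4 comparisons.

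**Figure D2:**
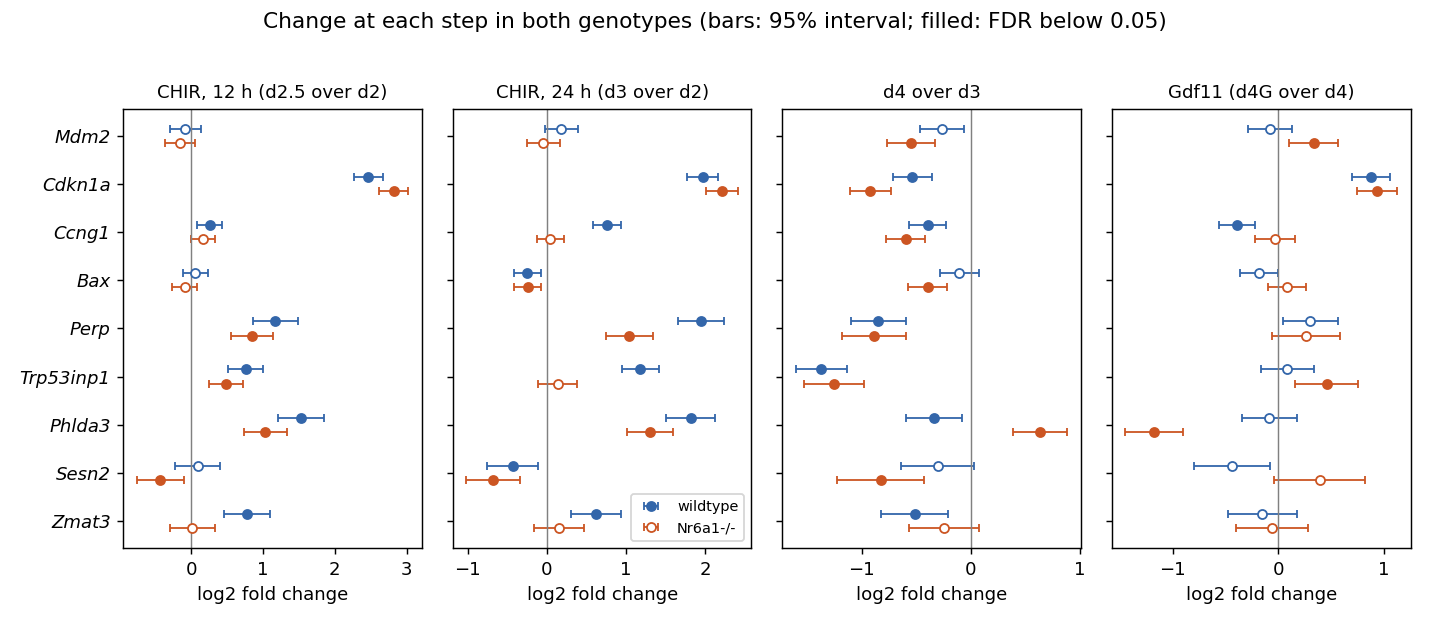
Log2 fold change (edgeR) of each member at each step, in wildtype and in Nr6a1-/- cells, with 95% confidence intervals as bars. Trp53inp1, Perp and Ccng1 had lower changes from d2 to d3 in Nr6a1-/- cells, and from d3 to d4 Phlda3 changed by -0.34 in wildtype and 0.64 in Nr6a1-/- cells.

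Between genotypes, no member was called before CHIR. At d2, 0 of 9 passed edgeR's test (4.07% of all genes did), 0 had an unadjusted p below 0.05 and DESeq2 called 0, with log2 fold changes between -0.22 and 0.29. The Nr6a1-/- libraries of Zmat3 and Perp all lay above the wildtype libraries at d2, without a call (FDR = 0.55 and 0.555). Such an order of 3 against 3 libraries is only a description here and below, since its share over all genes is not reported. At d2.5, 0 members were higher and 2 lower in Nr6a1-/- cells (2.86% and 3.59% of all genes), at d3 0 were higher and 4 lower (4.47% and 6.3%), and at d4 1 was higher and 6 were lower (9.7% and 9.18%). At d4G, 0 were higher and 3 lower (3.28% and 4.63%). The median log2 fold change of the members was 0.02 before CHIR, -0.21 at d2.5, -0.41 at d3, and on the last day -0.695 without and -0.28 with Gdf11, while the median of all tested genes stayed between -0.00859 and 0.0179. Ccng1, Trp53inp1 and Perp were lower in Nr6a1-/- cells at d3, d4 and d4G alike, with no overlap between the groups. Without d4 wildtype replicate 2, the same 7 members were called at d4, with log2 fold changes of -1.06 for Sesn2, -0.97 for Trp53inp1, -0.96 for Ccng1, -0.75 for Perp, -0.72 for Mdm2, -0.39 for Cdkn1a and 0.70 for Phlda3. Without d4 Nr6a1-/- replicate 1 these 7 were called again, at -0.83 for Sesn2, -0.95 for Trp53inp1, -1.04 for Ccng1, -0.62 for Perp, -0.695 for Mdm2, -0.45 for Cdkn1a and 0.68 for Phlda3.

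**Figure D3:**
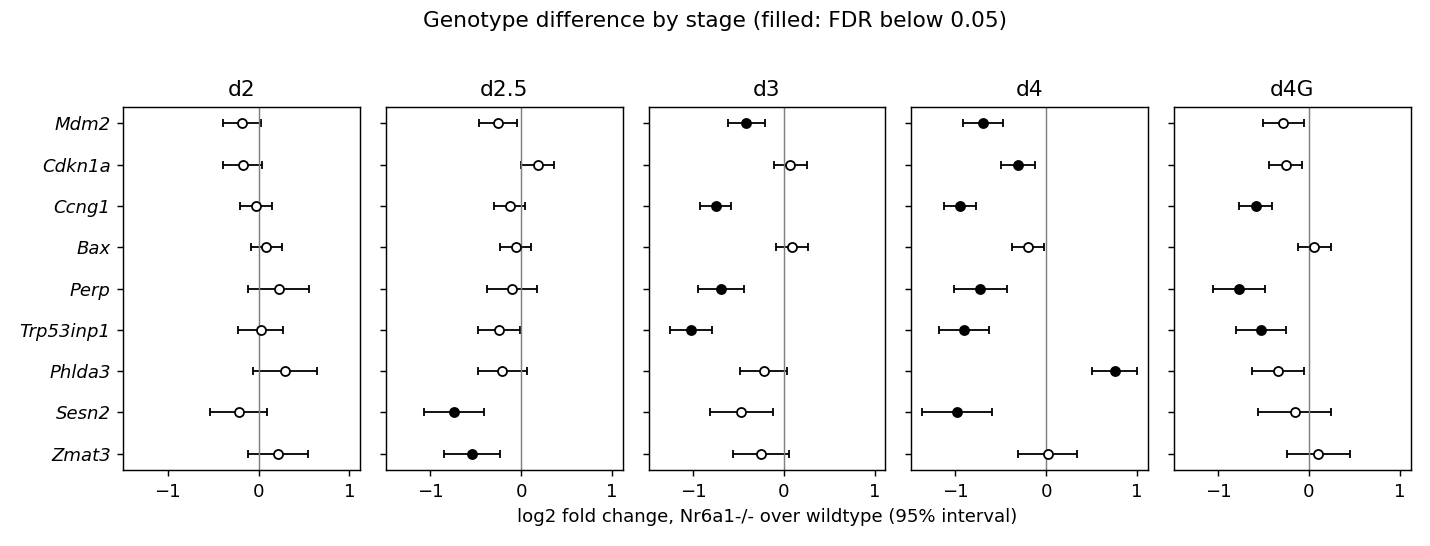
Log2 fold change of each member, Nr6a1-/- over wildtype, at the 5 stages, with 95% confidence intervals as bars and calls at a false discovery rate (FDR) below 0.05 marked. At d2 all members lie between -0.22 and 0.29, and at d4 Phlda3 alone lies above 0 among called members.

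Other cell states also differed between the genotypes, some already at d2, and their part in the genotype difference of the members was not tested. Presomitic mesoderm markers (6 genes, summed, with Meox1 at 0 in wildtype libraries at d3) reached 57.6 to 82.1 CPM in wildtype and 101 to 134 CPM in Nr6a1-/- libraries at d3, and 328 to 422 CPM against 833 to 867 CPM at d4. Endoderm markers (6 genes) summed to 89.3 to 96.8 CPM against 20.1 to 23.3 CPM at d3 and to 50.8 to 58.9 CPM against 5.96 to 11.1 CPM at d4, with Cer1 at 0 throughout and Foxa1 at 0 at d3. At d4G the mesoderm sum was 153 to 188 CPM against 288 to 312 CPM, and the endoderm sum 51.9 to 65.6 CPM against 4.33 to 9.87 CPM. The endoderm sum was also lower before d3. At d2 it was 57.5 to 72.2 CPM in wildtype and 43.8 to 48.6 CPM in Nr6a1-/- libraries, with Foxa1 at 0. At d2.5 it was 248 to 267 CPM against 160 to 184 CPM. NMP markers (7 genes) summed to 956 to 1040 CPM in wildtype and 1330 to 1550 CPM in Nr6a1-/- libraries at d3. The NMP sum was 515 to 577 CPM against 754 to 903 CPM at d4. With Gdf11 the order turned, at 429 to 450 CPM against 387 to 423 CPM. Neural markers (6 genes) summed to 38.2 to 42.4 CPM against 26.5 to 35 CPM at d3, 24.3 to 44.5 CPM against 14 to 21.3 CPM at d4 and 16.4 to 21.9 CPM against 10.1 to 12.1 CPM at d4G, with Olig2 at 0 in Nr6a1-/- libraries at d4 and Sox1 at d4G. They were also lower at d2, at 137 to 156 CPM against 101 to 107 CPM. Of the 6 neural markers, 3 lie on chromosome 8. Among those called between genotypes, 1 of 2 at d2, 2 of 2 at d3, 2 of 3 at d4 and 1 of 1 at d4G lie there. The share of all genes that lie on chromosome 8 is not reported, so these counts are a description only. The part of this location in the neural sums was not tested. The 8 markers of feeder fibroblasts, on which the stem cells had been grown before feeder depletion, were low at d3 (47.4 to 55.2 CPM against 61.4 to 74.8 CPM), with Lum at 0 in all 6 libraries and S100a4 at 0 in the Nr6a1-/- libraries. At d2 their sum was 16.5 to 23.2 CPM in wildtype and 33.4 to 39.4 CPM in Nr6a1-/- libraries, with Lum at 0. At d4 it was 25.7 to 29.6 CPM against 17 to 23 CPM, with S100a4 at 0 in both lines and Lum at 0 in wildtype.

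Mdm2, the ubiquitin ligase that closes the feedback loop on p53, was not called at any step of the wildtype time course and was lower in Nr6a1-/- cells at d3 and d4. Its CPM was 76.1, 86.0 and 77.4 in the 3 wildtype libraries at d2, 76.2, 69.6 and 80.4 at d2.5 and 86.9, 93.0 and 91.2 at d3. In these libraries the level at d3 lay just above that at d2, and the change after 24 h of CHIR did not pass the test (log2 fold change 0.18 ± 0.10, SE, FDR = 0.158, 95% interval -0.02 to 0.39). In Nr6a1-/- cells it read 71.9, 65.0 and 66.9 CPM at d3 and 45.5, 46.4 and 47.3 CPM at d4, where wildtype cells held 77.6, 74.6 and 73.5 CPM. The groups did not overlap at either stage. Mdm2 was 1.33-fold lower in Nr6a1-/- cells at d3 (log2 -0.41 ± 0.10, FDR = 0.00598) and 1.62-fold lower at d4 (log2 -0.69 ± 0.11, FDR = 6.33e-06). The d3 call was lost without the filter on low counts (log2 -0.38, FDR = 0.0753). From d3 to d4 Mdm2 fell by 0.55 in Nr6a1-/- cells (FDR = 0.000221) and changed by -0.27 in wildtype cells (FDR = 0.052), a difference that did not pass its own test (FDR = 0.29). The wildtype change was called in 3 of 12 alternatives, without normalisation factors (FDR = 0.0234), with the replicate number as a block (FDR = 0.0494) and with only the libraries compared (FDR = 0.0398). With Gdf11 the Nr6a1-/- libraries spread out, at 70.2, 52.2 and 52.8 CPM, and overlapped the wildtype values of 72.6, 66.2 and 75.0 CPM (log2 -0.28, FDR = 0.119). Without Nr6a1-/- replicate 1, the highest of that group, the difference was called (log2 -0.44, FDR = 0.0161).

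Cdkn1a encodes p21, the inhibitor of cyclin-dependent kinases through which p53 arrests the cell cycle. It had the largest rise in the group after CHIR was added. Wildtype libraries held 111, 98.8 and 96.0 CPM at d2 and 556, 553 and 585 CPM at d2.5. Nr6a1-/- libraries held 97.0, 85.7 and 88.8 CPM and 685, 603 and 632 CPM. Every d2.5 library of either line lay far above every d2 library. The rise was 5.54-fold in wildtype cells (log2 2.47 ± 0.099, FDR = 8.16e-21) and 7.09-fold in Nr6a1-/- cells (log2 2.83 ± 0.099, FDR = 7.11e-23). The difference between these rises did not pass the test (log2 0.35 ± 0.14, FDR = 0.256, 95% interval without adjustment 0.08 to 0.63). At d3 wildtype libraries held 386, 409.7 and 399.6 CPM and Nr6a1-/- libraries 438, 426 and 391 CPM, below every d2.5 library, and the lines overlapped. The difference between the lines at d3 was 0.07 on the log2 scale, with a 95% interval from -0.11 to 0.25.

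Cdkn1a fell further from d3 to d4 in both lines. It stood at 317, 254 and 257 CPM in wildtype and 256, 198 and 207 CPM in Nr6a1-/- libraries at d4, where the groups overlap because Nr6a1-/- replicate 1 lies among the wildtype values. The fitted difference was -0.32 ± 0.092 (FDR = 0.0132), and this call was lost without wildtype replicate 1 (log2 -0.21, FDR = 0.145), without Nr6a1-/- replicate 2 (FDR = 0.0988), without Nr6a1-/- replicate 3 (FDR = 0.0821), and when the fit held only the 6 libraries compared (FDR = 0.106). Without d4 wildtype replicate 2 its FDR was 0.00695, and without Nr6a1-/- replicate 1 it was 0.000349. Gdf11 raised Cdkn1a again, to 490.4, 557 and 468 CPM in wildtype and 422, 422 and 424 CPM in Nr6a1-/- libraries. Compared with d4, the rise was 1.84-fold in wildtype (log2 0.88 ± 0.090, FDR = 1.49e-09) and 1.91-fold in Nr6a1-/- cells (log2 0.94 ± 0.093, FDR = 5.55e-10). The difference between these rises was 0.06 (95% interval -0.20 to 0.32, FDR = 0.889). Cdkn1a was the only member that Gdf11 raised in wildtype cells, where 1 member rose and 1 fell (14.3% and 14.5% of all genes did). In Nr6a1-/- cells 3 members rose and 1 fell (8.45% and 9.59%), of which the rises of Mdm2 (log2 0.34, FDR = 0.0377) and Trp53inp1 (0.46, FDR = 0.0276) were lost in 7 and 5 of 12 alternatives. The rise of Mdm2 was among those not called without d4 Nr6a1-/- replicate 1 (FDR = 0.0978).

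Ccng1, which encodes cyclin G1, a regulator of Mdm2 and of cell cycle progression, rose over 24 h of CHIR in wildtype cells, while its change in Nr6a1-/- cells did not pass the test. At d2 the lines overlapped, at 213, 229 and 217 CPM in wildtype and 212, 207 and 226 CPM in Nr6a1-/- libraries. At d3 they held 348, 367 and 400.0 CPM and 229, 243 and 193 CPM. The highest Nr6a1-/- library at d3 was well below the lowest wildtype library. Ccng1 rose 1.69-fold from d2 to d3 in wildtype cells (log2 0.76 ± 0.085, FDR = 4.18e-09), whereas in Nr6a1-/- cells the change was 0.04 ± 0.085 (FDR = 0.753). The change differed between the lines by -0.72 ± 0.12 (FDR = 0.000264), 1 of 3 members for which this test passed with a lower value in Nr6a1-/- cells, against 1.09% of all genes that were lower and 1.19% that were higher. Ccng1 was 1.68-fold lower in Nr6a1-/- cells at d3 (FDR = 4.09e-08), 1.93-fold lower at d4 (log2 -0.95 ± 0.087, FDR = 1.09e-10) and 1.5-fold lower at d4G (log2 -0.59 ± 0.090, FDR = 1.18e-05). Its d4 libraries read 291, 283 and 274 CPM (wildtype) and 163, 142 and 135 CPM (Nr6a1-/-). The smaller wildtype rise at d2.5 (log2 0.26, FDR = 0.0231) was lost in 5 of 12 alternatives. These were no filter on low counts (FDR = 0.105) and leaving out wildtype replicate 1 or 3 at d2, or 2 or 3 at d2.5 (FDR = 0.0576 to 0.0784). The Gdf11 response of Ccng1 differed between the lines by 0.36 (FDR = 0.129), which was called without d4 Nr6a1-/- replicate 1 (log2 0.45, FDR = 0.0187).

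Trp53inp1, a nuclear and autophagy-linked protein that promotes p53-dependent cell death, followed the course of Ccng1 with a wider swing. It stood at 56.8, 60.5 and 75.4 CPM in wildtype and 64.0, 64.0 and 69.4 CPM in Nr6a1-/- libraries at d2, which overlapped. At d3 wildtype cells had reached 131, 151 and 158 CPM, and Nr6a1-/- cells 69.9, 65.4 and 81.5 CPM. Nr6a1-/- cells had risen at d2.5, to 89.8, 91.7 and 95.9 CPM (log2 0.49, FDR = 0.00178), and all of their d3 libraries lay below these values. Over 24 h of CHIR it rose 2.27-fold in wildtype cells (log2 1.18 ± 0.12, FDR = 2.19e-10), and in Nr6a1-/- cells the change was 0.14 ± 0.12 (FDR = 0.423). The difference of -1.04 ± 0.17 was the largest of any member at that step (FDR = 0.000147). It was 2.03-fold lower in Nr6a1-/- cells at d3 (FDR = 3.17e-08) and 1.87-fold lower at d4 (FDR = 4.19e-06), when both lines had fallen back, to 59.3, 53.05 and 58.2 CPM and 31.6, 26.1 and 32.8 CPM. At d4G the difference was -0.53 ± 0.14 (FDR = 0.0083), a call lost without wildtype replicate 2 (FDR = 0.0759) or Nr6a1-/- replicate 2 (FDR = 0.0878).

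Perp, a membrane protein that p53 induces in dying cells and that epithelia use in desmosomes, climbed through both CHIR time points. Wildtype libraries held 18.4, 22.8 and 23.4 CPM at d2, 49.5, 45.7 and 50.6 CPM at d2.5 and 75.8, 94.8 and 80 CPM at d3. Nr6a1-/- libraries held 24.5, 27.3 and 23.5 CPM, 51.0, 39.9 and 45.8 CPM and 46.2, 59.4 and 50.2 CPM. At d2 every Nr6a1-/- library lay above every wildtype library (log2 0.22, FDR = 0.555), at d2.5 the lines overlapped, and at d3 every Nr6a1-/- library lay below. From d2 to d3 Perp rose 3.86-fold in wildtype (log2 1.95 ± 0.14, FDR = 1.6e-13) and 2.06-fold in Nr6a1-/- cells (log2 1.04 ± 0.14, FDR = 3.62e-07), and these rises differed by -0.91 ± 0.21 (FDR = 0.00948). The deficit in Nr6a1-/- cells was -0.69 at d3 (FDR = 0.00019), -0.73 at d4 (FDR = 0.000244) and -0.77 at d4G (FDR = 0.000216). With Gdf11, 54.4, 61.3 and 56.1 CPM in wildtype stood against 38.0, 32.5 and 30.5 CPM in Nr6a1-/- libraries. These 3 calls held in all 12 alternatives run for each.

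Bax, the effector that permeabilises mitochondria in apoptosis, moved little. Its group means ran from 194 ± 21.6 CPM (SD, n = 3) in Nr6a1-/- cells at d4 to 303 ± 19.9 CPM in the same line at d2. No genotype comparison of Bax passed the test, the widest difference being -0.20 at d4 (FDR = 0.101, 95% interval without adjustment -0.38 to -0.03). It fell by 0.25 from d2 to d3 in wildtype cells (FDR = 0.0239) and by 0.24 in Nr6a1-/- cells (FDR = 0.0265), and each of these small falls was lost in more than 1 of the alternatives. From d3 to d4 it fell by 0.40 in Nr6a1-/- cells (FDR = 0.000691), a call that held in all 12 alternatives, while in wildtype cells the change was -0.11 (FDR = 0.43).

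Phlda3, a repressor of the kinase Akt that competes for membrane lipids, rose in both lines with CHIR and then parted. Wildtype libraries held 10.9, 20.7 and 17.2 CPM at d2 and 51.7, 56.6 and 62.0 CPM at d3, and Nr6a1-/- libraries 18.4, 21.3 and 19.3 CPM and 42.2, 51.3 and 52.8 CPM. At d4 wildtype cells stood at 45.3, 42.8 and 46.8 CPM and Nr6a1-/- cells at 81.9, 72.1 and 73.3 CPM. All Nr6a1-/- libraries lay above all wildtype libraries, the only member with that order among the calls at d4. Phlda3 rose 3.52-fold in wildtype (FDR = 4.58e-12) and 2.47-fold in Nr6a1-/- cells (FDR = 4.64e-09) over 24 h of CHIR. At d4 it was 1.69-fold higher in Nr6a1-/- cells (log2 0.75 ± 0.12, FDR = 1.21e-05), and 0.70 on the log2 scale without d4 wildtype replicate 2. The change from d3 to d4 differed between the lines by 0.98 ± 0.18 (FDR = 0.00034), 1 member of 9 against 2.97% of all genes in that direction and 2.75% in the other. With Gdf11 the order turned, with 43.7, 43.9 and 39.6 CPM in wildtype and 33.7, 34.4 and 32.6 CPM in Nr6a1-/- libraries, although the difference at d4G did not pass the test (log2 -0.34, FDR = 0.163). Gdf11 lowered Phlda3 2.26-fold in Nr6a1-/- cells (FDR = 1.37e-08), its change in wildtype cells was -0.08 (FDR = 0.671), and the difference of -1.09 ± 0.19 passed the test (FDR = 0.000276), 1 member against 1.49% of all genes in that direction and 1.17% in the other. Without d4 wildtype replicate 2 these differences were 0.92 (FDR = 0.0019) and -1.05 (FDR = 0.00111), and without d4 Nr6a1-/- replicate 1 they were 0.90 (FDR = 0.000868) and -1.03 (FDR = 0.000414).

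Sesn2 encodes Sestrin 2, a leucine sensor that restrains the growth kinase complex mTORC1, and it is induced by the stress factor Atf4 as well as by p53. It fell from d2 to d3 in both lines, by 0.43 in wildtype (FDR = 0.032, lost in 6 of 12 alternatives) and by 0.68 in Nr6a1-/- cells (FDR = 0.00155). At d2.5 it read 88.1, 98.1 and 72.4 CPM in wildtype and 48.3, 59.2 and 47.2 CPM in Nr6a1-/- libraries. At d4 it read 65.0, 44.8 and 38.4 CPM and 18.6, 27.1 and 27.7 CPM. The groups did not overlap at either stage, but wildtype replicate 1 was well above the other two at d4. The difference was -0.74 ± 0.16 at d2.5 (FDR = 0.00276), -0.47 at d3 (FDR = 0.076, not called) and -0.99 ± 0.19 at d4 (FDR = 0.000175). With Gdf11 the lines overlapped, at 35.9 ± 6.03 CPM and 32.7 ± 7.02 CPM (SD, n = 3).

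Zmat3, a zinc finger protein that binds RNA and regulates splicing, rose from 49.0, 46.2 and 46.1 CPM to 80.5, 77.7 and 84.0 CPM in wildtype cells within 12 h of CHIR (1.71-fold, FDR = 0.000311). In Nr6a1-/- cells it went from 57.4, 50.2 and 56.9 CPM to 50.2, 65.5 and 50.4 CPM, groups that overlap (log2 0.02, FDR = 0.952). The lines did not overlap at d2.5, where Zmat3 was 0.54 lower on the log2 scale in Nr6a1-/- cells (FDR = 0.0238). This call was lost on leaving out any of 5 of the 6 libraries (all but Nr6a1-/- replicate 2, FDR = 0.0502 to 0.111), and the difference between the changes did not pass the test (log2 -0.76 ± 0.22, FDR = 0.106). No member passed the interaction test from d2 to d2.5 in edgeR, where 4 had an unadjusted p below 0.05, DESeq2 called 0 and 0.609% of all genes were called.

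From d3 to d4 most members declined. In wildtype cells 6 fell and 0 rose (11.3% and 9.77% of all genes), with Trp53inp1 falling 2.59-fold, Perp 1.80-fold and Cdkn1a 1.45-fold. In Nr6a1-/- cells 7 fell and Phlda3 alone rose (12.3% fell and 13.6% rose), with Trp53inp1 falling 2.39-fold, Cdkn1a 1.90-fold and Perp 1.85-fold. Zmat3 was the member that did not pass the test in Nr6a1-/- cells (log2 -0.25, FDR = 0.27). The wildtype fall of Phlda3 (log2 -0.34, FDR = 0.0482) was lost in 7 of 12 alternatives. It was lost in DESeq2 (FDR = 0.0839), without the filter on low counts (FDR = 0.246) and without d3 wildtype replicate 2 (FDR = 0.0879) or 3 (FDR = 0.201). Leaving out any d4 wildtype library also lost it (FDR = 0.0738 to 0.15, the latter without replicate 2, log2 -0.29). The greater fall of Cdkn1a in Nr6a1-/- cells was not called as a difference (log2 -0.39 ± 0.13, FDR = 0.0696), although it was in 6 of 18 alternatives. These were without normalisation factors (FDR = 0.026), with the replicate number as a block (FDR = 0.045), and without d3 Nr6a1-/- replicate 3 (FDR = 0.047), d4 wildtype replicate 2 (FDR = 0.0407), d4 wildtype replicate 3 (FDR = 0.0361) or d4 Nr6a1-/- replicate 1 (log2 -0.53, FDR = 0.00317).

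Over the 10 group means of log2 CPM, the members did not all follow the same course. Pearson's r was 0.878 between Ccng1 and Trp53inp1, 0.865 between Mdm2 and Ccng1 and 0.878 between Bax and Sesn2, whereas it was -0.037 between Cdkn1a and Mdm2. Cdkn1a and Perp had an r of 0.755. These points share libraries and a time course and are given as a description only. Among the 8265 genes that averaged 10 CPM or more, the gene whose 10 group means were most like those of Cdkn1a was Kif3b (r = 0.9845), a kinesin motor subunit, followed by Erp44 (0.9543), a chaperone of the secretory pathway, and Derl1 (0.9418), which retrieves misfolded proteins from the endoplasmic reticulum. Kif3b had 10.5 ± 2.82 CPM (SD, n = 3) at d2 and 18.4 ± 5.09 CPM at d2.5 in wildtype cells.

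The RNA of p53 itself was not called between genotypes at any stage. Trp53 ranged from 134 ± 4.8 CPM in Nr6a1-/- cells at d4 to 188 ± 6.37 CPM (SD, n = 3) in wildtype cells at d2.5. Its log2 fold change between genotypes was 0.14 before CHIR, -0.05 at d2.5, 0.07 at d3, and at the last day -0.10 without and 0.01 with Gdf11, with FDR between 0.466 and 0.961. RNA does not measure p53 protein, which is controlled mainly through its breakdown. Mdm4, the partner of Mdm2 that masks the activation domain of p53, passed the test between genotypes at d4G alone (log2 0.33, FDR = 0.0491), and that call was lost in 11 of 12 alternatives. Of 20 regulators 19 were tested, and between genotypes 1 was higher and 2 lower at d3 (4.47% and 6.3% of all tested genes), 1 was higher and 1 lower at d4 (9.7% and 9.18%), and 1 was higher and 1 lower at d4G (3.28% and 4.63%). These counts are near the shares over all genes. Cdkn2a, whose p19Arf product inhibits Mdm2 and whose p16 product inhibits cyclin-dependent kinases, was lower in Nr6a1-/- cells at d3 (log2 -1.62, FDR = 0.000703) and at d4, where 14.4 ± 2.02 CPM in wildtype stood against 2.45 ± 1.66 CPM in Nr6a1-/- cells (log2 -2.57, FDR = 8.41e-07). Counts at the 3′ end do not separate these products. Hipk2, a kinase that phosphorylates p53, was higher in Nr6a1-/- cells at d4, at 34.2 ± 3.92 CPM against 16.3 ± 3.18 CPM (log2 1.04, FDR = 9.42e-05). Ppp1r13l (iASPP), an inhibitor of p53, was lower at d3 (log2 -0.91, FDR = 0.0182).

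A wider list of 38 other p53 targets, of which 34 were tested, had more rises than falls after CHIR in wildtype cells. From d2 to d3, 17 rose and 3 fell in wildtype cells (19.6% and 17.8% of all genes). The median log2 fold change was 0.518, against 0.00398 over all tested genes. In Nr6a1-/- cells 9 rose and 6 fell (16.6% and 15.1%), with a median of 0.0418 against 0.0171. The death receptor gene Fas had the largest change in either line, 3.83 in wildtype (FDR = 5.82e-07) and 34 counts at d3 against 3 at d2 in Nr6a1-/- cells, which is a ratio of 11.2 (95% counting interval 3.52 to 57). Gadd45a, a stress sensor that acts in growth arrest and DNA repair, went the other way, from 193 ± 55.8 CPM at d2 to 18.8 ± 5.30 CPM at d3 in wildtype cells (log2 -3.34, FDR = 3.28e-11). At 12 h the list had 12 higher and 3 lower in wildtype cells (13.3% and 12.1% of all genes). In Nr6a1-/- cells it had 9 higher and 3 lower (12.9% and 11.2%). For 2 genes the change over 24 h of CHIR was lower in Nr6a1-/- than in wildtype cells by the interaction test (1.09% of all genes). They were Apaf1, the apoptosome scaffold (log2 -0.87, FDR = 0.0137), and Rchy1, a ubiquitin ligase for p53 (log2 -0.89, FDR = 0.0102).

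Between genotypes the same list had 0 higher and 1 lower gene before CHIR (4.07% of all genes called). At d2.5 it had 1 higher and 2 lower (2.86% and 3.59% of all genes). At d3 it had 2 higher and 16 lower (4.47% and 6.3%), with a median of -0.528 against 0.0024 over all tested genes. At d4 it had 2 higher and 9 lower (9.7% and 9.18%), with a median of -0.286. With Gdf11 the numbers were 2 and 3 (3.28% and 4.63%). The single call at d2 was Gadd45a (log2 -1.18, FDR = 0.0021). At d3 the largest was Dram1, a lysosomal inducer of autophagy, with 22 counts in wildtype and 3 in Nr6a1-/- cells. The ratio was 8.18 (95% counting interval 2.46 to 42.7), and its call was lost in 2 of 12 alternatives. Rap2b, a small GTPase, had 252 ± 24.3 CPM against 115 ± 36.5 CPM (log2 -1.13, FDR = 0.00326). Tnfrsf10b, the TRAIL death receptor, had 42.5 ± 9.09 CPM against 20.1 ± 4.26 CPM (log2 -1.08, FDR = 0.00158). The 2 genes that were higher in Nr6a1-/- cells at d3, named after their values were seen, were Pmaip1 (Noxa, a Bcl2 antagonist, log2 0.60, FDR = 0.00503) and the ephrin receptor Epha2 (log2 0.49, FDR = 0.0268), and both were higher again at d4.

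At d4, Sfn, the 14-3-3 sigma protein of the checkpoint before mitosis, was lower in Nr6a1-/- cells (log2 -2.21, FDR = 0.00103), as were Dcxr, a carbonyl reductase (54.7 ± 3.60 CPM against 27.1 ± 3.78 CPM, FDR = 3.08e-07), and Btg2, an antiproliferative factor (107 ± 7.18 CPM against 52.6 ± 8.02 CPM, FDR = 1.83e-09). With Gdf11, 7 of the list rose and 2 fell in wildtype cells (14.3% and 14.5% of all genes). In Nr6a1-/- cells 5 rose and 0 fell (8.45% and 9.59%). Btg2 had the largest rise in both lines, to 733 ± 36.9 CPM in wildtype (log2 2.78, FDR = 6.6e-23) and 1078 ± 44.2 CPM in Nr6a1-/- cells (log2 4.35, FDR = 4.94e-28). Its response differed between the lines by 1.57 (FDR = 3.3e-10). Cdkn1a and Btg2 therefore both rose with Gdf11, while the difference between lines passed the test for Btg2 and not for Cdkn1a. From d3 to d4, 0 of the list rose and 18 fell in wildtype cells (9.77% and 11.3% of all genes), with a list median of -0.586. In Nr6a1-/- cells 1 rose and 12 fell (13.6% and 12.3%).

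Genes downstream of p21 were read from 20 cell cycle genes that the DREAM repressor complex silences when p21 blocks cyclin-dependent kinases. At d2.5, when Cdkn1a was highest, 0 were higher and 12 lower than at d2 in wildtype cells (median log2 fold change -0.319, with 12.1% of all tested genes lower), and 2 were higher and 9 lower in Nr6a1-/- cells (median -0.286, with 12.9% and 11.2% of all genes). Top2a, the topoisomerase of mitotic chromosomes, fell by 0.80 in wildtype (FDR = 8.86e-11) and 0.71 in Nr6a1-/- cells (FDR = 7.44e-10). Cdk1, the mitotic kinase, fell by 0.72 (FDR = 9.43e-07) and 0.69 (FDR = 1.17e-06). At d3 the counts were 0 higher and 11 lower in wildtype (19.6% and 17.8% of all genes) and 1 higher and 8 lower in Nr6a1-/- cells (16.6% and 15.1%). Between genotypes, 0 were higher and 1 lower at d2 (4.07% of all genes called) and at d2.5 (2.86% higher and 3.59% lower), 2 higher and 1 lower at d3 (4.47% and 6.3%), 5 higher and 2 lower at d4 (9.7% and 9.18%), and 1 higher and 1 lower with Gdf11 (3.28% and 4.63%). The lower gene at d2 and d2.5 was Mcm5, which lies on chromosome 8 and was also among the genes called at d3, d4 and d4G.

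Other inhibitors of cyclin-dependent kinases were read beside Cdkn1a. Of 5 tested, 0 were higher and 1 lower at d2.5 than at d2 in wildtype cells (13.3% and 12.1% of all genes). The lower gene was Cdkn1c (p57, log2 -0.64, FDR = 0.000455). At d4, 1 was higher and 3 were lower in Nr6a1-/- cells (9.7% and 9.18% of all genes). The lower genes were Cdkn2a, Cdkn2b (log2 -1.72, FDR = 0.00691) and Cdkn1c (log2 -1.47, FDR = 5.57e-10). Gdf11 raised Cdkn1c by 0.89 in wildtype and 2.28 in Nr6a1-/- cells, and these responses differed by 1.39 (FDR = 5.31e-06). The corresponding difference for Cdkn1a was 0.06 (FDR = 0.889).

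Of 11 Bcl2 family genes, which set the threshold for Bax, 1 was higher in Nr6a1-/- cells at d2 (4.07% of all genes were called). At d3, 0 were higher and 1 lower (4.47% and 6.3%), at d4 1 was higher and 0 lower (9.7% and 9.18%), and at d4G 0 were higher and 1 lower (3.28% and 4.63%). Bcl2l1, the survival factor Bcl-xL, was lower in Nr6a1-/- cells at d3 (log2 -0.64, FDR = 0.000931), and Bak1, the other pore former, was higher at d4 (log2 0.81, FDR = 0.00239). From d2 to d3, 6 of the 11 were called in wildtype cells (19.6% of all genes were higher and 17.8% lower). In Nr6a1-/- cells 5 were called (16.6% and 15.1%). Among them, Bcl2l11 (Bim, a trigger of Bax) fell by 1.11 in wildtype (FDR = 0.000232) and 1.47 in Nr6a1-/- cells (FDR = 4.61e-07). Mcl1, a survival factor, fell by 0.73 (FDR = 1.55e-05) and 0.98 (FDR = 3.92e-08).

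Because Sesn2 also answers to Atf4, 15 Atf4 targets, Sesn2 included, were read beside it. From d2 to d3, 1 was higher and 13 lower in wildtype cells (19.6% and 17.8% of all genes), with a list median of -0.849. In Nr6a1-/- cells 2 were higher and 8 lower (16.6% and 15.1%), with a list median of -0.517. Sesn2 thus fell together with most of this list. Between genotypes, 0 were higher and 4 lower at d2.5 (2.86% and 3.59% of all genes). Among the 4 were Trib3 (log2 -1.07, FDR = 9.5e-05), a pseudokinase of the stress response, and Shmt2 (log2 -0.52, FDR = 0.00454), a mitochondrial folate enzyme. At d3, 6 were higher and 0 lower in Nr6a1-/- cells (4.47% and 6.3% of all genes), while Sesn2 was at -0.47 and not called. The glutathione-degrading enzyme Chac1 led the 6 (log2 1.61, FDR = 0.00074). At d4, Ddit4, another inhibitor of mTORC1, was higher in Nr6a1-/- cells (log2 2.16, FDR = 2e-15), where Sesn2 was lower.

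Perp was likewise read beside 14 desmosome and epithelial genes, itself included. At d2, 3 were higher and 0 lower in Nr6a1-/- cells (4.07% of all genes called), with a list median of 0.343. At d2.5, 0 were higher and 2 lower (2.86% and 3.59% of all genes). At d3, 0 were higher and 4 lower in Nr6a1-/- cells (4.47% and 6.3% of all genes). Krt18 (log2 -1.13, FDR = 6.33e-10) and Krt8 (-0.82, FDR = 3.64e-05), keratins of simple epithelia, were ahead of Perp. At d4, 1 was higher and 5 lower (9.7% and 9.18%), led by the tight junction genes Cldn7 (-3.01, FDR = 5.35e-10) and Cldn6 (-2.19, FDR = 7.11e-10). At d4G 0 were higher and 8 lower (3.28% and 4.63%). The interaction from d2 to d3 passed for 5, all lower in Nr6a1-/- cells (1.09% of all genes), led by Krt18 (-1.54, FDR = 8e-09). Perp, itself among the called genes of this list, thus moved in the direction of most of them at d3, d4 and d4G. The endoderm markers, also epithelial, moved the same way. The part of these states in the level of Perp was not tested.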

How the data were processed

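The deposited file gives raw, whole-number counts of each gene in each library, which the authors made from 3′ end libraries with an index added at priming. STAR, edgeR and the mm10 build are named in the submitters' processing notes. The annotation, counting software, strand setting and handling of molecular identifiers are not given in the sources used here. The 5 other deposited tables hold the authors' comparisons of genotypes and were not used. All 30 columns matched a label, leaving 0 unmatched. Groups and replicate numbers came from the labels.

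The filter asked for counts above 10 and CPM above 2 in 2 or more libraries of any group (12149 genes, at least 99.16% of each library's counts). Counts were scaled by TMM and fitted in edgeR 4.0.16 (R 4.3.3, limma 3.58.1) as 1 model of 10 groups, leaving 20 residual degrees of freedom. The 17 comparisons were tested with glmQLFTest, 2-sided, and called at a Benjamini-Hochberg FDR below 0.05 over all genes tested. Errors on log2 fold changes are standard errors (the log2 fold change over the square root of F), intervals are 95%, and CPM are TMM-scaled with no prior count. Ratios of pooled counts have exact 95% intervals, which cover counting error only, as do the limits of 3 counts for a 0. Alternatives were DESeq2 1.42.0 as the test, RLE or no normalisation factors, no filter on low counts, a fit of only the libraries compared, the replicate number as a block, and leaving out each library. The procedure was tested on simulated data.

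The members, gene lists, tests and alternatives were chosen with earlier results of these data known. All members are named, with Trp53, Mdm4 and Nr6a1, and of each other list at most 3 genes per comparison, those with the largest change among the called genes. Any further gene is said to have been named after its values were seen. The 3 genes most like Cdkn1a were chosen by Pearson's r over group means. Replicates of a group differed by a chi-square per gene of 1.496 to 7.675 over 30 pairs, and no 2 libraries held the same counts.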

Additional observations from a re-analysis of the deposited data

Results flagged for a closer look

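These 5 results stood out because the change itself differed between wildtype and Nr6a1-/- cells when the difference was tested as an interaction in edgeR over all 12149 genes. From d2 to d3, Trp53inp1 changed by -1.044 (log2 scale, SE 0.1672, FDR = 0.000147) in Nr6a1-/- relative to wildtype cells, Ccng1 by -0.7156 (SE 0.1201, FDR = 0.000264) and Perp by -0.9072 (SE 0.2073, FDR = 0.00948). From d3 to d4, Phlda3 changed by 0.9752 (SE 0.1752, FDR = 0.00034), and in the response to Gdf11 by -1.093 (SE 0.1872, FDR = 0.000276). The Phlda3 results share the d4 libraries and are not separate evidence. Each of the 5 stayed past the threshold in all 18 alternatives run for it, and their causes were not tested.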

How the results depend on the processing

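Of 2052 values of the members under the alternatives, 1965 kept their direction and side of the threshold, 60 lost a call, 27 gained one and 0 called values reversed, while 59 values that were not called changed sign. Of 3968 values of named genes of the other lists, 3585 stayed the same, 380 lost a call, 3 gained one and 0 reversed. The number of members that passed the test differed from the reported one in 75 of 228 comparisons and settings, by more than 1.5 times in 20, libraries left out included. For Gdf11 in Nr6a1-/- cells it went from 4 to 2, and for the interaction from d2 to d2.5 from 0 to 1, both without the filter on low counts and in a fit of only the libraries compared. For the interaction from d3 to d4 it went from 1 to 2 without normalisation factors, and for the Gdf11 interaction from 1 to 2 without the filter. The other p53 targets in the interaction from d2 to d3 went from 2 to 5 without the filter and with only the libraries compared. The causes were not tested.

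Leaving out 1 library at a time, the members called between genotypes numbered 0 at d2, 1 to 2 at d2.5, 4 at d3, 6 to 7 at d4 and 2 to 4 at d4G. In wildtype cells they numbered 5 to 6 (d2.5 against d2), 6 to 7 (d3 against d2), 4 to 6 (d4 against d3) and 2 to 3 (Gdf11). In Nr6a1-/- cells the ranges were 4 to 5, 4 to 5, 8 to 8 and 2 to 4. For the interactions they were 0 to 0 (d2 to d2.5), 3 to 3 (d2 to d3), 1 to 2 (d3 to d4) and 1 to 2 (Gdf11). The other p53 targets called ranged from 12 to 16 at d3, 8 to 13 at d4, 19 to 20 (wildtype, d3 against d2), 12 to 15 (Nr6a1-/-, same step) and 1 to 3 (interaction).

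Over 135 pairs with the same replicate number in different groups the median correlation of deviations was 0.0193 (-0.221 to 0.296), and 31 exceeded 0.1. Over 270 pairs with different numbers the median was -0.00769, and 27 exceeded 0.1. Values above 0.1 were thus more frequent with the same number, so some sharing by replicate number is possible. Between genotypes at the same stage, the median over 15 pairs with the same number was -0.0235, and 2 exceeded 0.1. With the replicate number as a block, the interaction from d3 to d4 went from 1 to 2 members, and no other count of members moved by more than 1.5 times. Depth limits low genes most, since 3 counts correspond to 0.813 to 1.91 CPM.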

Other observations

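The Gdf11 step was also read through 9 tested targets of Smad2/3, the factors that Gdf11 activates, beside the rise of Cdkn1a at that step. Gdf11 raised 8 and lowered 0 of them in wildtype cells (14.3% and 14.5% of all genes, median log2 fold change 1.75) and 8 and 0 in Nr6a1-/- cells (8.45% and 9.59%, median 3.84). Lefty2, an inhibitor of Nodal, rose by 4.5 in wildtype and by 7.72 in Nr6a1-/- cells, and this difference of 3.22 passed the interaction test (FDR = 0.000958). The interaction passed for 5 of the 9 genes, all with the greater rise in Nr6a1-/- cells, where 1.17% of all genes were called in that direction. Cdkn1a rose by 0.88 and 0.94 at the same step, with a difference of 0.06 (FDR = 0.889).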
